A study of Mus musculus with 4 samples.

Results

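Wild-type intestinal stem cells, sorted by GFP driven from Lgr5, were compared with GFP-negative non-stem cells, on 1 microarray each. The comparison covers every array feature that carries exactly 1 gene symbol, 31261 of the 72688 features, which stand for 30705 genes. The value compared is the log2 signal on the stem array minus the log2 signal on the non-stem array, so a difference of 1 is a 2-fold difference. Both samples came from wild-type mice, 8 weeks old, that carry Lgr5GFP-CreERT2, an allele that places GFP and a tamoxifen-inducible Cre recombinase under the control of Lgr5. Cells of the small intestine were sorted into GFP+ ISCs (intestinal stem cells) and GFP- non-ISCs, and total RNA was extracted with Trizol. The series holds 2 more arrays, of LncGata6 mutant and of Ehf-/- stem cells, both on the same Lgr5GFP-CreERT2 background. Their values are given below only for context. The number of mice, their sex and any pooling are not given in the labels, and the Lgr5 allele is known to be silenced in patches of crypts, so GFP-negative cells can include stem cells. With 1 array a side there is no spread between replicates, no test and no p-value, and every statement is a description of these 2 arrays.

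The epithelium of the small intestine is renewed from crypts. Lgr5, a receptor for R-spondins, marks the columnar stem cells at the crypt base, which divide under Wnt signals and lie between Paneth cells, secretory cells that release antimicrobial proteins and growth factors. Their daughters become absorptive enterocytes, mucus-producing goblet cells, hormone-producing enteroendocrine cells or chemosensory tuft cells as they move towards the villus. A sort on GFP is therefore meant to set the crypt base against everything else that was put through the sorter.

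The labels were read against marker genes. Lgr5 read 3.03 on the non-stem array and 9.41 on the stem array, and Olfm4, a glycoprotein secreted at the crypt base, read 5.42 and 10.81, so the arrays differ in the direction of their labels for these markers. Ascl2, a Wnt-responsive transcription factor of crypt base stem cells, read 3.86 and 4.68, and Smoc2, a matrix-associated protein of the same cells, read 4.72 and 5.46. Both genes stayed under the control limits described in the next paragraph on both arrays. The collection protocol names a sort of ILCreg cells, a regulatory innate lymphoid type, in place of stem cells. Of the genes that define that type, Id3 read 4.43 on the non-stem and 5.57 on the stem array, Il7r read 3.62 and 4.19, and Il2ra read 2.17 and 2.84, all under the control limits. The non-stem array does not look like intestinal epithelium alone. Albumin (Alb), made by hepatocytes, read 12.52 there and 2.13 on the stem array, and Kap, which kidney tubules make under androgens, read 12.30 and 1.58. The stem array was not limited to crypt base genes either. Fabp6, the ileal bile acid binding protein, read 1.91 on the non-stem and 9.22 on the stem array. Immunoglobulin kappa V segments had medians of 4.91 and 8.33. In bulk RNA, fewer cells of a type and less RNA per cell cannot be told apart, which holds for every difference given here.

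A gene is called higher or lower on the stem array when its 2 values differ by at least 1 and the brighter value reaches the 95th percentile of the negative controls on its own array. These control limits were 5.16 on the non-stem array and 5.62 on the stem array. By that rule 926 genes (3.02% of 30705) were higher on the stem array and 2237 (7.29%) were lower. Among 19235 protein-coding genes the counts were 546 higher (2.84%) and 1862 lower (9.68%). At a difference of at least 2, a 4-fold difference, 394 genes were higher (1.28%) and 975 lower (3.18%). Differences of 4 or more were held by 65 genes called higher and 337 called lower. The non-stem array had more genes above its limit, 8123 (26.5%), than the stem array, with 5073 (16.5%). Its limit was also the lower one, 5.16 against 5.62, so these counts and the calls depend on the limits as well. Of the genes above a limit, 4558 passed on both arrays, 3565 on the non-stem array alone and 515 on the stem array alone. The median difference over all genes was -0.11, and -0.15 over protein-coding genes. Most genes lay under both limits and could not be called. Among the 6278 protein-coding genes above a limit on at least 1 array, 8.70% were higher and 29.7% lower, with a median of -0.45. Lists whose members are mostly above a limit are to be read against these last shares, and the other lists against those over all genes. Of all calls 29.3% were higher. Setting the array medians equal moved the median of all genes by 0.12 and that share to 35.9%, and quantile normalization of both arrays moved them by 0.17 and to 43.4%. Close to the rule, 111 higher and 186 lower genes differed by 1 to 1.1.

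Folds are the brighter signal over the dimmer. Where the dimmer value lay under its control limit, the limit replaced it and the fold is written "at least". No fold is given where that bound came to less than 1 or where both values lay under the limits.

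**Figure D1:**
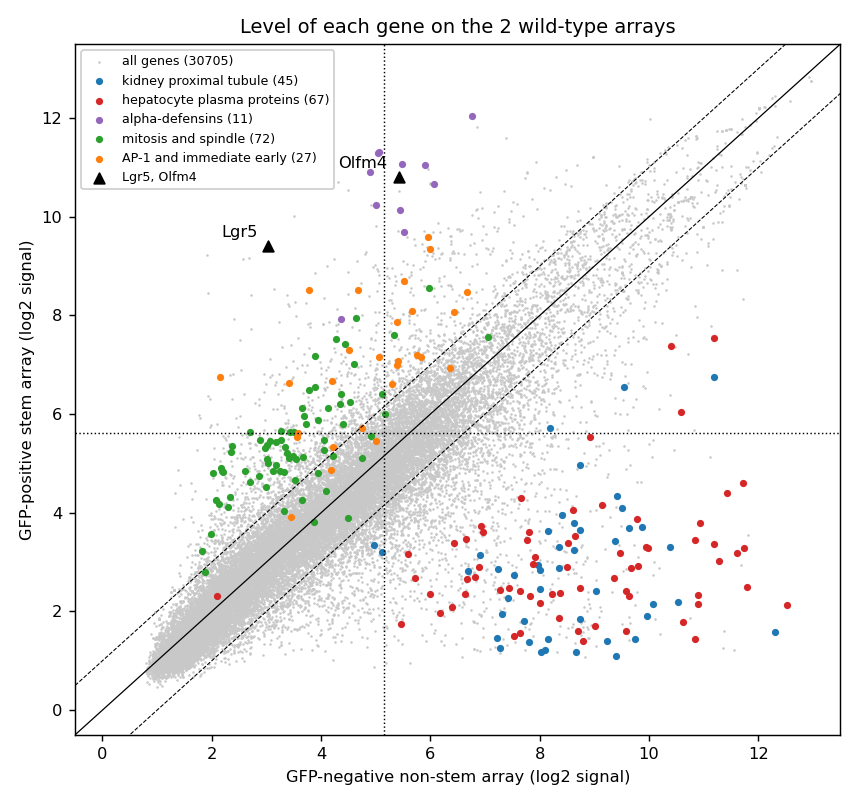
Log2 signal of 30705 genes on the GFP-negative non-stem array (horizontal) and the GFP-positive stem array (vertical), with 5 gene lists in colour, Lgr5 and Olfm4 as triangles, dashed lines at a difference of 1 either way and dotted lines at the control limits of 5.16 and 5.62. Alpha-defensins, immediate early genes and all but 2 mitosis genes (Pttg1 and Spc25) lie above the diagonal, and kidney tubule genes and all but 1 hepatocyte gene (A1bg) lie below it.

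Crypt base stem cell genes were divided. Of 37 measured genes of the list, 9 were called higher and 4 lower, with a median difference of 0.57, and 16 lay under the limits on both arrays. The higher members were led by Lgr5 (at least 19-fold), Olfm4 (42.1-fold) and Kcne3, a potassium channel subunit that supports chloride secretion, which read 3.07 on the non-stem array and 7.11 on the stem array. The cell surface receptor Cd44, a Wnt target, read 4.37 and 6.6 (at least 2.71-fold), and Sox9, a transcription factor of the crypt base, read 4.68 and 6.55 (at least 2.62-fold). Lrig1, an inhibitor of EGF receptors in stem cells, read 4.82 and 6.04 (at least 1.84-fold). The 4 lower members were Cyp2e1, Nrn1, Igfbp4 and Fstl1. Cyp2e1, the ethanol-metabolizing cytochrome P450, is better known from liver, and read 11.67 on the non-stem and 2.93 on the stem array. Igfbp4, an IGF-binding protein, read 8.60 and 5.64, a 7.82-fold difference, and Nrn1, a neuritin, read 7.17 and 3.44. Among the 24 members not called, Prom1, the CD133 antigen, read 5.81 and 6.67, Phlda1 read 5.28 and 5.86, and Tnfrsf19 (Troy) read 3.50 and 3.48. Lgr5 read 3.03 in the LncGata6 mutant sample and 2.79 in the Ehf-/- sample.

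The genes proposed to mark reserve or position 4 stem cells gave 3 higher and 2 lower of 10. Bmi1, a polycomb protein, read 5.22 on the non-stem and 4.96 on the stem array, and Tert, the telomerase catalytic subunit, stayed under the limits at 2.76 and 3.14. Hopx read 4.65 and 5.35, also under the limits. The called members that belong to no crypt base list were Krt19, a keratin of simple epithelia (5.71 and 9.42), Clu, a secreted chaperone (8.94 and 6.25, 6.48-fold lower), and the IGF receptor Igf1r (6.6 and 4.58, at least 1.97-fold lower).

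Wnt signalling genes were taken by role. None of 11 ligands and R-spondins reached a control limit on either array. Wnt3, which Paneth cells supply to stem cells, read 2.65 on the non-stem and 3.48 on the stem array, and Rspo3, made by stroma, read 3.07 and 2.67. Of 19 receptors and receptor-modifying ligases, 2 were higher and 3 lower (median -0.39). Beside Lgr5, the higher gene was the frizzled receptor Fzd5, at 5.07 and 6.70 (at least 2.92-fold). Lower were Fzd4 (6.61 and 3.56), Fzd1 (5.67 and 3.97) and the coreceptor Lrp6 (7.51 and 6.08, 2.71-fold). Lgr4, the R-spondin receptor that many epithelia share, read 7.25 and 6.52. Of 12 antagonists, the secreted Sfrp1 (7.12 and 3.73) and Frzb (5.20 and 1.66) were lower, and Axin2, which feeds back on beta-catenin, was higher at 4.20 and 5.92. Among 13 nuclear factors and target genes 4 were higher and 0 lower, with a median of 0.64. They were Cd44, Sox9, Axin2 and Myc, the growth-promoting transcription factor, at 5.30 and 6.6 (2.47-fold). Lef1 (3.67 and 3.12) and Ephb3 (3.40 and 4.22) stayed under the limits.

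Most Notch, BMP and EGF pathway genes were not called, and the calls went both ways. Of the Notch list 5.56% were higher and 5.56% lower, and of the BMP and hedgehog list 5.0% and 10.0%. The shares over all genes were 3.02% and 7.29%. Under both limits lay 14 of 18 Notch, 12 of 20 BMP and hedgehog and 8 of 15 EGF genes. In the Notch list of 18 genes, Hes1, a repressor that Notch induces in crypt progenitors, was the only higher member (4.90 and 6.12, at least 1.94-fold) and Notch2 the only lower one (6.14 and 5.05). Notch1 read 5.13 and 5.27, and the ligand Dll1 read 4.3 and 4.87. In the BMP and hedgehog list of 20, Id1, an inhibitor of basic helix-loop-helix factors, read 5.75 and 8.00 (4.75-fold higher), while its relative Id2 read 9.17 and 7.75 and the hedgehog transducer Smo read 6.14 and 4.75. The type I BMP receptor Bmpr1a read 5.89 and 6.48, not a call. In the EGF list of 15, 2 genes were higher and 3 lower. Hbegf, a membrane-tethered ligand, was the largest higher difference (4.62 and 8.15, at least 7.97-fold). The lower members were Egf itself (8.76 and 2.70), the receptor Egfr (8.08 and 5.09, at least 5.47-fold) and the feedback inhibitor Errfi1 (8.70 and 7.56). Egf is also a gene of the kidney distal tubule, a list that was lower as a group. Of 18 YAP and TEAD targets, Ccn1 (Cyr61) was higher at 6.24 and 8.79 (5.86-fold) and 4 were lower, among them Ccn2 (5.92 and 4.51) and Amotl2 (5.32 and 4.15).

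Genes of dividing cells, where they could be called, were higher on the stem array. Of 72 measured genes of mitosis and the spindle, 23 were called higher and 0 lower, with a median difference of 1.98. Another 47 lay under the limits on both arrays. Mki67, the proliferation antigen, read 5.97 on the non-stem and 8.55 on the stem array (5.97-fold). The ubiquitin-conjugating enzyme Ube2c, which works with the anaphase-promoting complex, read 5.33 and 7.61 (4.85-fold), and the kinase Plk1 read 4.59 and 7.02 (at least 3.63-fold). Ccnb2, a mitotic cyclin, read 4.65 and 7.94, Kif11, the kinesin that separates spindle poles, read 3.89 and 7.18, and Top2a, the topoisomerase that untangles chromosomes, read 4.27 and 7.52. Ndc80 (3.18 and 5.44) and Cenpe (2.88 and 5.46) of the kinetochore stayed under the limits. Only Pttg1 (4.49 and 3.89) and Spc25 (3.87 and 3.81) had differences below 0. The array labelled Ehf-/- read at or above the stem array for several of these genes, with Mki67 at 9.78 and Smc2 at 6.32 against 5.64.

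The start sites of mitosis genes were set beside these values, because many of them are known to carry CCAAT boxes, through which the factor NF-Y activates them, and the cell cycle homology region TTTGAA, through which the DREAM complex represses them outside their phase of the cycle. RefSeq windows of 250 bases before the gene start were searched for CCAAT and TTTGAA on both strands. Shown are the 3 largest differences among the 10 mitosis genes that were called higher and hold both motifs, so holding both was a condition of the choice. Capitals mark CCAAT and TTTGAA or their reverse complements, and the sequences are from GRCm38.p6, 5′ to 3′ along the gene.
Ccnb2 (chr9:70421555-70421804, minus strand): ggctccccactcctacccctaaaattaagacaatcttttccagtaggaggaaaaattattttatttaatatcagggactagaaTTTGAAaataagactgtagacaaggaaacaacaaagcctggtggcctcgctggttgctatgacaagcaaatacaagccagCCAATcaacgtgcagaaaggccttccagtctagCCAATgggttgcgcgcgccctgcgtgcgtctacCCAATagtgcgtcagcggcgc
Kif11 (chr19:37376132-37376381, plus strand): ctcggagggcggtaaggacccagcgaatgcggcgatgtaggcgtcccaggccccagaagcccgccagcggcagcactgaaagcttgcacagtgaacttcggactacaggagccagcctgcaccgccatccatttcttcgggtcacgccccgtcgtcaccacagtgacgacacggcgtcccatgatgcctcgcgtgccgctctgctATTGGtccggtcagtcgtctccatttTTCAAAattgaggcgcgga
Top2a (chr11:99024190-99024439, minus strand): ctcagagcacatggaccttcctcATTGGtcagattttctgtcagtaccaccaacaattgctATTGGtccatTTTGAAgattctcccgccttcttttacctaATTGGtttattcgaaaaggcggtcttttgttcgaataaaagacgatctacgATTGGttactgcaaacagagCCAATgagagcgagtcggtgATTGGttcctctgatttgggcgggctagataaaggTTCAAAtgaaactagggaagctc
The Ccnb2 window holds 3 CCAAT boxes and 1 TTTGAA, the Kif11 window 1 of each and the Top2a window 6 and 2. Over 18268 genes with a window, 38.5% held CCAAT, 16.6% held TTTGAA and 6.03% held both. Of 61 mitosis genes with a window, 41 (67.2%) held CCAAT, 21 (34.4%) held TTTGAA and 17 (27.9%) held both. Among the 16 of these that were called higher, 14 held CCAAT and 10 held both. Of all 420 genes called higher that have a window, 40.95% held CCAAT and 8.10% held both motifs. A match is a description of these letters and not a binding site, and the motifs were chosen after the values were seen.

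DNA replication genes differed less. Of 55 genes of S phase 9 were higher and 0 lower, with a median of 1.05, and 43 lay under both limits. Pcna, the sliding clamp of DNA polymerase, read 5.49 on the non-stem and 7.14 on the stem array (3.15-fold), and Rrm1, a subunit of ribonucleotide reductase, read 5.20 and 6.86 (3.15-fold). The clamp loader subunit Rfc4 had the largest difference, at 3.77 and 6.35, while the helicase subunit Mcm2 (4.85 and 5.79) missed the rule. Among their 45 windows 57.8% held CCAAT and 15.6% held TTTGAA. Of 23 replication-dependent histone genes with a value, 3 were higher, including H2ac15 (3.83 and 6.28), and 18 lay under both limits. Brakes on the cell cycle were mixed: Cdkn1a (p21) read 6.24 and 8.05 (3.51-fold higher) and Btg1 read 4.08 and 6.64 (at least 2.80-fold), but Cdkn1b (p27) read 5.02 and 5.48, and Gas1 read 5.47 and 3.93, called lower. Chromatin regulators followed the same direction, with 6 of 24 higher and 0 lower, among them the polycomb methyltransferase Ezh2 (4.62 and 5.87), its partner Suz12 (4.88 and 5.92) and Hmgb2 (5.88 and 8.11, 4.7-fold). Of 6 NURF complex genes 1 was higher and 0 lower, with differences from -2.14 to 1.14 and a median of 0.07. The called gene was the remodelling ATPase Smarca5 (5.26 and 6.40, 2.20-fold), and Bptf, the large subunit of the complex, read 5.92 and 6.01.

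Growth of ribosomes gave 8 higher and 0 lower of 31 nucleolar genes, with a median of 0.48. Nop58, a core protein of box C/D RNA particles, read 5.61 on the non-stem and 8.00 on the stem array (5.22-fold), nucleolin (Ncl) read 6.66 and 8.34 (3.20-fold), and nucleophosmin (Npm1) read 7.16 and 8.60 (2.71-fold). Ribosomal protein genes themselves moved less. Of 34 with a value, 1 was called, Rpl4, at 9.97 and 11.10 (2.19-fold), and the median was 0.34.

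Paneth cell genes made the largest group difference among the higher lists. Of 11 alpha-defensin genes with a value, out of 43 listed, all 11 were called higher, with a median difference of 5.22 and differences from 3.57 to 6.25. Defa30 read 6.77 on the non-stem and 12.03 on the stem array (38.4-fold), Defa34 read 5.49 and 11.07 (47.8-fold), and Defa28, at the low end, read 4.37 and 7.93 (at least 6.84-fold). Alpha-defensins (cryptdins) are small cationic peptides that kill bacteria. Their genes are close copies, so array features can share probes and the 11 are not separate readings. Defa21 and Defa22 are an example, with readings of 5.06 and 11.30, and of 5.03 and 11.29. Their 250 bases before the start were identical at 250 of 250 positions. The other pairs among 6 defensin genes with a window were the same at 18.4% to 41.2% of positions. That comparison used no alignment, so a shifted start lowers it and it does not measure how alike those windows are. The sequence shared by Defa21 and Defa22 is given once, with the reverse complement of CCAAT in capitals, a motif that all 6 windows held.
Defa21 (chr8:21025295-21025544, plus strand, GRCm38.p6): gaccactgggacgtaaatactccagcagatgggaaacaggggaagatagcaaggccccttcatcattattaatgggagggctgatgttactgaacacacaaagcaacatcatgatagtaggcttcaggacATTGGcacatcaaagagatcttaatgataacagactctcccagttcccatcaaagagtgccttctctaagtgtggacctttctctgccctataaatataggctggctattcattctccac
On the array labelled Ehf-/- the defensin median was 3.09, and on the LncGata6 mutant array it was 9.4.

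Other Paneth antimicrobial and secretory genes gave 11 higher and 2 lower of 15, with a median of 3.42. Lysozyme (Lyz1) read 7.38 on the non-stem and 11.59 on the stem array (18.5-fold), Pla2g2a, a secreted phospholipase, read 2.71 and 7.73, and Dmbt1, a mucosal scavenger protein, read 7.72 and 10.78 (8.29-fold). Colipase (Clps), better known from pancreas, read 4.11 and 9.0 (at least 14.3-fold), and the lipase-related Pnliprp2 read 3.40 and 8.22 (at least 8.35-fold). The pancreatic acinar list gave 2 higher and 2 lower of 25, with 19 under both limits. Its higher members were Clps and Pnliprp2, its lower ones Reg1 and the trypsin inhibitor Spink1 (8.80 and 5.21), and trypsin 2 (Prss2) read 2.67 and 2.19. The lower members were Habp2, a protease that liver also makes (7.82 and 5.23), and uroguanylin, Guca2b (9.58 and 8.34, 2.35-fold), a peptide of the villus. Lyz2, the macrophage lysozyme and a near copy of Lyz1, read 8.18 and 10.54, against the direction of its macrophage list.

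Antimicrobial lectins and surface defence proteins shared that pattern. Of 20 measured, 12 were higher and 2 lower (median 2.39). Reg3g, a lectin that kills Gram-positive bacteria, read 5.88 on the non-stem and 9.30 on the stem array (10.7-fold), and Reg3b read 8.47 and 10.96 (5.59-fold). The mucosal pentraxins Mptx1 (2.57 and 9.15) and Mptx2 (4.31 and 10.71) were among the 15 largest differences of all genes. The oxidase Duox2 (3.29 and 6.49) and its maturation factor Duoxa2 (3.0 and 6.6) were higher together. Reg1 ran the other way, at 8.32 and 3.43 (at least 6.47-fold lower), as did lipocalin 2 (Lcn2, 5.62 and 4.29). Of 9 gasdermins, pore-forming proteins, the 3 called were neighbours in name, Gsdmc2 (3.37 and 8.41), Gsdmc3 (3.52 and 8.28) and Gsdmc4 (2.68 and 9.16, at least 16-fold), while Gsdmd read 5.84 and 5.03.

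Of 22 goblet genes 7 were higher, 2 lower and 13 not called, with a median difference of 1.22. The mucin Muc2 read 6.57 on the non-stem and 9.74 on the stem array (8.98-fold), Tff3, a trefoil peptide, read 7.14 and 9.37 (4.69-fold), and Agr2, a disulfide isomerase needed for mucin, read 5.01 and 9.80 (at least 25-fold). Kallikrein 1 (Klk1), which kidney also makes, read 11.60 and 8.91 and was lower. Of 25 enteroendocrine genes 6 were higher and 0 lower, with a median of 1.52, and 19 lay under both limits. Chromogranin A (Chga) read 4.08 and 6.5, chromogranin B (Chgb) read 2.96 and 6.82 (at least 3.16-fold), and somatostatin (Sst) read 5.39 and 6.91 (2.87-fold). The glucagon gene (Gcg) read 1.93 and 6.36, and Reg4, a lectin of enteroendocrine and goblet-lineage cells, read 3.88 and 8.86 (at least 13-fold). Tuft genes gave 1 call in 17, Cd24a, which is not restricted to tuft cells (8.45 and 9.80). Dclk1 (2.86 and 4.33) and Trpm5 (3.20 and 3.57) lay under the limits. Secretory fate factors were mostly dim: Atoh1, the switch to secretory fate, read 2.87 and 5.57, just under its limit, and Gfi1 read 4.35 and 4.42. Sox9, Creb3l1 (5.22 and 6.44) and Xbp1 (6.69 and 7.80, 2.16-fold), a driver of secretory capacity, were the 3 called higher of 23.

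**Figure D2:**
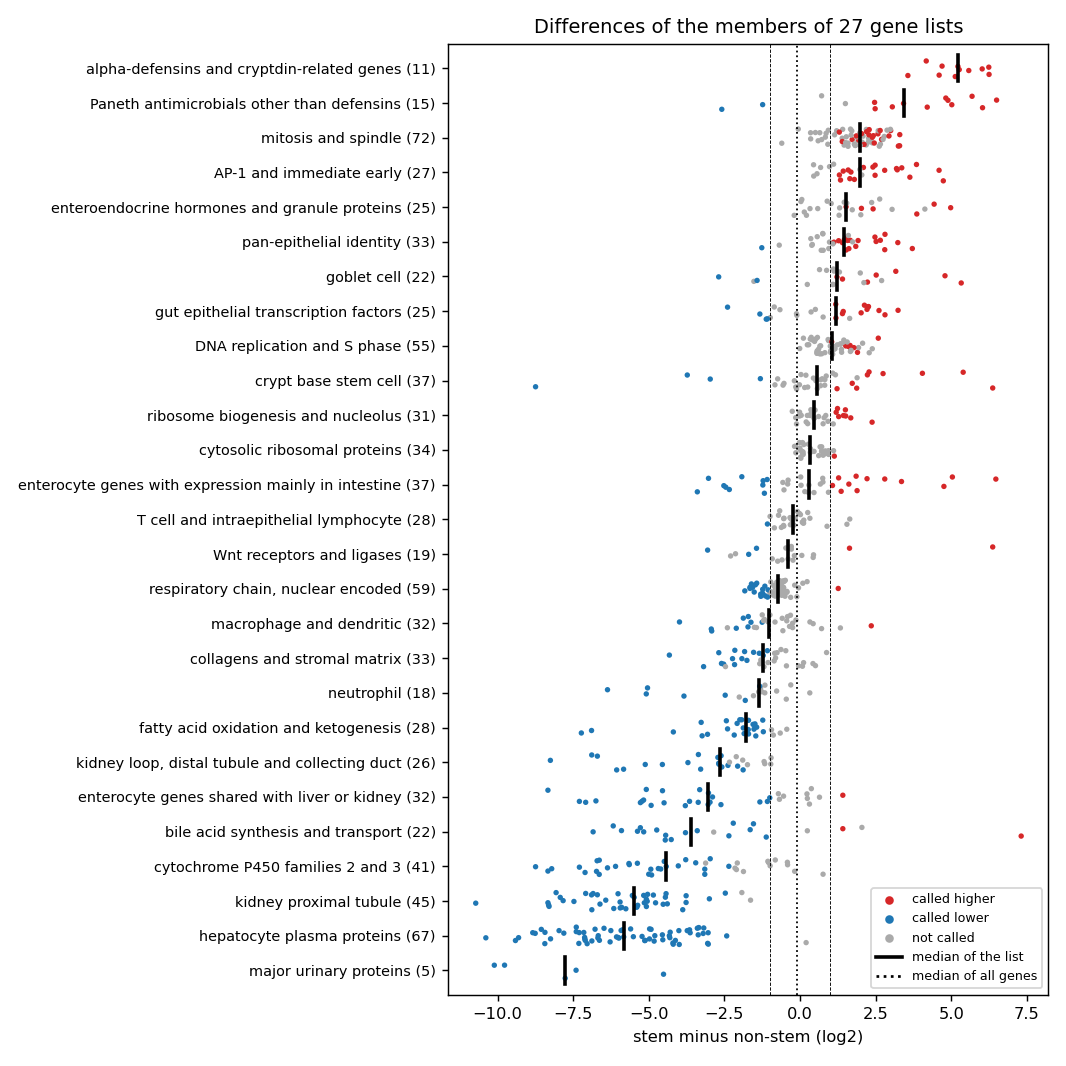
Difference, stem minus non-stem (log2), of each measured member of 27 gene lists, ordered by their medians, with red for genes called higher, blue for lower and grey for no call. The list medians (black bars) run from -7.76 for major urinary proteins to 5.22 for alpha-defensins, and the dotted line is the median of all genes, -0.11.

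General epithelial genes moved with the stem label. Of 33 genes found in simple epithelia 18 were higher and 1 lower, with a median of 1.46. The adhesion molecule Epcam read 7.22 on the non-stem and 9.70 on the stem array (5.57-fold), E-cadherin (Cdh1) read 7.67 and 9.24 (2.97-fold), and keratin 8 (Krt8) read 7.85 and 10.37 (5.72-fold). The splicing regulator Esrp1 read 3.47 and 6.71, and the intestinal cadherin Cdh17 read 6.36 and 9.16 (6.97-fold). The lower member was claudin 2 (Cldn2), a pore-forming junction protein of leaky epithelia such as kidney tubules, at 5.19 and 3.93. This list median exceeds that of the crypt base list, and what part of the stem, secretory and cell division differences goes with it was not tested. On the Ehf-/- array the epithelial list had a median level of 3.74, under that array's limit of 5.19, while the LncGata6 mutant array stood at 7.30.

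Transcription factors of the gut epithelium gave 12 higher and 4 lower of 25, with a median of 1.18. Cdx2, which specifies intestine, read 4.69 on the non-stem and 6.71 on the stem array (at least 2.93-fold), and Cdx1 read 3.40 and 5.66. The ETS factors Elf3 (5.33 and 8.14, 7.01-fold) and Ehf (3.75 and 6.99) and the zinc finger factor Klf5 (4.91 and 7.52, at least 5.15-fold) had the largest differences. Factors that liver and kidney share with intestine did otherwise. Hnf4a read 8.16 and 7.31 and was not called, Ppara, the regulator of fatty acid oxidation, was lower at 6.85 and 4.45, and the bile acid receptor Nr1h4 (FXR) was lower at 6.67 and 5.55. Hnf4g, the gut-enriched relative of Hnf4a, was higher at 6.19 and 7.38 (2.28-fold). Of 30 Hox genes, 29 stayed under both limits, and only Hoxd8 was called, lower at 5.34 and 3.92. The median of that list was -0.54, with Hoxc10, a posterior gene, at 4.26 and 1.38.

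Of 26 genes of chloride, bicarbonate and water transport 10 were higher, 6 lower and 10 not called. Cftr, the apical chloride channel of crypts, read 3.15 on the non-stem and 6.58 on the stem array (at least 2.68-fold), the basolateral cotransporter Slc12a2 read 5.68 and 8.42 (6.71-fold), and the guanylin receptor Gucy2c read 5.21 and 8.00 (6.93-fold). Clca3b, of the family of secreted chloride channel regulators, read 5.96 and 10.96 (32.1-fold), and guanylin (Guca2a) read 3.22 and 7.87 (at least 6.55-fold). The lower members were Guca2b, the water channels Aqp7 (5.68 and 2.86) and Aqp3 (6.33 and 3.95), and 3 more. The bicarbonate cotransporter Slc4a4 read 9.54 and 6.54 (7.98-fold), the sodium-proton exchanger Slc9a3 read 7.20 and 5.12, and the water channel Aqp1 read 8.30 and 6.53 (3.42-fold). Slc4a4, Slc9a3 and Aqp1 are also abundant in the kidney proximal tubule. Carbonic anhydrases gave 2 higher and 7 lower of 14. Car3, of liver, fat and muscle, read 10.54 and 2.24 (at least 30.1-fold lower), Car2 read 9.13 and 3.73, and Car13, which intestine expresses, was higher at 4.36 and 6.35.

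Absorptive enterocyte genes were separated into those expressed mainly in intestine and those that liver or kidney also express, since both organs' transcripts are on the non-stem array. The split was made by hand with earlier results of these data known, so the contrast between the sets is a description and no test. The intestinal set of 37 gave 12 higher and 10 lower, with a median of 0.29. The shared set of 32 gave 1 higher and 23 lower, with a median of -3.03. In the intestinal set, Sis (sucrase-isomaltase) was higher, at 7.01 on the non-stem and 8.86 on the stem array, while the fatty acid binding protein Fabp2 read 9.50 and 9.54 and villin (Vil1) read 7.73 and 8.02. The brush border maltase Mgam (8.49 and 9.25) and the triglyceride transfer protein Mttp (7.37 and 7.66) were not called, nor were Fabp2 and Vil1. Lower members included Apoa4 (9.30 and 6.78, 5.73-fold), the phosphatase Alpi (8.72 and 6.79, 3.79-fold), the amino acid carrier Slc6a19 (7.36 and 3.97) and trehalase (Treh, 6.59 and 3.57). The last pair is expressed in kidney as well. In the shared set, Fabp1 read 10.06 and 5.14, the peptidase Mep1a read 9.23 and 4.73, and the lactate carrier Slc5a12 read 8.90 and 2.15. The shared apolipoproteins Apob (10.41 and 7.37, 8.21-fold) and Apoa1 (11.19 and 7.54, 12.6-fold) stayed well above the limit on the stem array. Slc51b, a basolateral bile acid carrier subunit, was the single higher member (7.34 and 8.76, 2.67-fold). On the LncGata6 mutant array the intestinal set had a median level of 9.32, against 6.59 on the non-stem and 7.22 on the stem array.

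**Figure D3:**
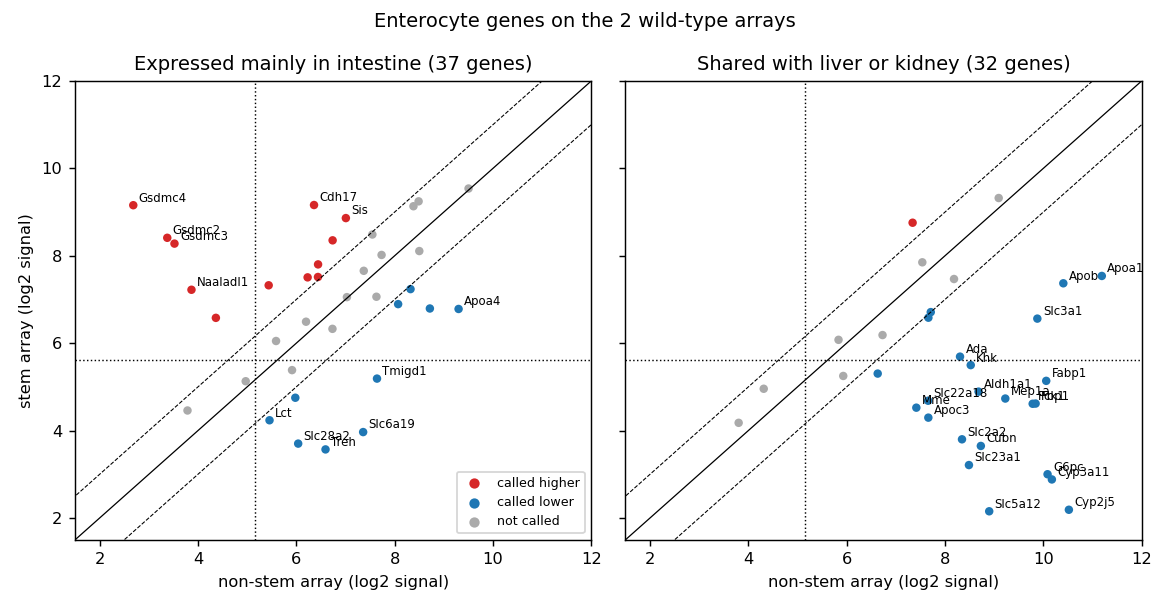
Log2 signal on the non-stem (horizontal) and stem (vertical) arrays of 37 enterocyte genes expressed mainly in intestine (left) and 32 shared with liver or kidney (right), with dashed lines at a difference of 1 and dotted lines at the control limits. The left panel scatters to both sides of the diagonal, and in the right panel 23 genes are called lower.

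Markers of position along the gut were not uniform. Fabp6, the ileal bile acid binding protein, had the largest difference of all genes called higher, at 1.91 on the non-stem and 9.22 on the stem array (at least 16.7-fold). Fgf15, the ileal hormone that bile acids induce, read 2.93 and 4.97, under the limits, and Osr2 read 4.99 and 6.76. The ileal list of 17 was not uniform, with 6 higher and 5 lower (median 0.90). Slc10a2, the apical bile acid carrier of ileum and of kidney tubules, read 5.54 and 3.90, and cubilin (Cubn), the vitamin B12 receptor of both organs, read 8.73 and 3.65. Of 17 proximal markers 1 was higher, the incretin Gip (3.89 and 5.92), and 6 lower, among them Adh1 (10.71 and 7.21, 11.3-fold) and Folh1 (6.97 and 1.48), which liver or kidney also express. Gata4, a transcription factor of proximal intestine, read 4.73 and 5.49, under the limits. Of 13 colon markers 2 were higher, Muc4 (3.38 and 5.73) and the anion exchanger Slc26a3 (3.85 and 6.03), 1 was lower, Mettl7b (7.99 and 3.43), and the colonic Car1 read 3.64 and 1.25. Stomach genes were absent from the calls apart from Dmbt1, with Tff1 at 4.18 and 3.02 and Tff2 at 3.28 and 2.95.

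The genes lower on the stem array were led by the products of hepatocytes. Of 67 plasma protein genes 66 were lower and 0 higher, with a median difference of -5.83. The list's median level was 8.65 on the non-stem and 2.89 on the stem array, and 2.90 and 2.50 on the LncGata6 mutant and Ehf-/- arrays. The exception was A1bg, at 2.10 and 2.3. Transthyretin (Ttr), the thyroid hormone carrier, read 10.92 and 3.80 (at least 39.4-fold), haemopexin (Hpx), which binds haem, read 11.28 and 3.03 (at least 50.3-fold), and the acute phase protein Orm1 read 8.79 and 1.39. Other large members were the fibrinogen chain Fgb (10.89 and 2.33), the protease inhibitor Serpina1c (11.73 and 3.29, at least 68.7-fold) and fetuin (Ahsg, 11.61 and 3.18, at least 63.4-fold). The alpha-2-macroglobulin relatives Pzp (10.90 and 2.15) and Mug1 (10.75 and 1.86) were among the 15 largest differences.

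Both ends of the liver lobule were present on the non-stem array. Of 15 periportal genes 12 were lower and 1 higher (median -4.62), and of 17 pericentral genes 10 were lower and 1 higher (median -5.04). Periportal Cyp2f2 read 9.52 on the non-stem and 2.81 on the stem array, Tdo2, which degrades tryptophan, read 8.64 and 1.36, and Hal, which degrades histidine, read 6.83 and 2.61. Pericentral Cyp1a2 read 9.79 and 3.09 (at least 18-fold) and Gulo, the last enzyme of vitamin C synthesis, read 8.40 and 2.91. Of the uncalled members, 3 pericentral genes lay under both limits. Cps1, the first enzyme of the urea cycle, read 10.40 and 9.88, Otc read 7.68 and 8.21, and Oat read 8.57 and 9.39, none of them called, and intestine is known to express these 3 as well, while arginase 1 (Arg1) read 7.54 and 2.80. Cdh1 and Axin2 were the higher members. Identity factors differed less, with 8 of 15 lower and a median of -1.12. Prox1 read 5.63 and 2.99 and Cebpa read 6.21 and 4.56, whereas Foxa2 read 4.49 and 4.49.

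Of 22 bile acid genes 17 were lower and 2 higher (median -3.59). Hepatic uptake carriers Slc10a1 (8.12 on the non-stem and 1.95 on the stem array) and Slco1b2 (7.19 and 1.29), the export pump Abcb11 (7.37 and 1.99) and the conjugating enzyme Baat (6.26 and 1.52) all lay under the limit on the stem array. Cyp8b1, which sets the balance of cholic acid, read 7.6 and 3.15, and Cyp7a1, the rate-limiting enzyme of synthesis, was under the limits at 4.38 and 1.53. The 2 higher genes were the ileal Fabp6 and Slc51b, while other genes that ileum uses, Slc10a2 and Nr1h4, were lower and Slc51a read 5.83 and 6.08.

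Kidney tubule genes made the second group. Of 45 proximal tubule genes 43 were lower and 0 higher, with a median of -5.48 and median levels of 8.41 on the non-stem and 2.84 on the stem array. Megalin (Lrp2), the scavenger receptor of the tubule, read 10.07 and 2.15 (at least 21.9-fold), the phosphate carrier Slc34a1 read 10.39 and 3.30 (at least 27.1-fold), and Miox, which breaks down inositol, read 9.03 and 2.42 (at least 10.6-fold). The uncalled members were Slc34a3 (5.12 and 3.20) and Pdzk1ip1 (4.98 and 3.34). Later segments were present too, with 18 of 26 genes lower and 0 higher (median -2.65). Uromodulin (Umod) of the loop of Henle read 10.10 and 1.85, the thiazide-sensitive cotransporter Slc12a3 of the distal tubule read 8.79 and 2.95, and the water channel Aqp2 of the collecting duct read 6.99 and 4.28. Glomerular genes were weak on both arrays: nephrin (Nphs1) read 3.72 and 3.02, and 1 of 7 was called, podocalyxin (Podxl, 6.66 and 5.03), which endothelium also expresses. Of 9 kidney identity factors 2 were lower, Pax8 (5.70 and 3.31) and Tfcp2l1 (7.33 and 4.54), and Pax2 read 4.74 and 3.67.

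Genes that respond to sex hormones were among the liver and kidney transcripts. Of 16 androgen-regulated genes 15 were lower on the stem array, with a median of -6.84. Cyp4a12a, a male-specific P450, read 8.75 on the non-stem and 1.52 on the stem array, the steroid dehydrogenase Hsd3b5 of male liver read 8.25 and 2.23, and Slco1a1 read 8.02 and 1.18. All 5 measured major urinary protein genes, pheromone carriers whose synthesis male mice favour, were lower (median -7.76), with Mup20 at 11.36 and 1.25. These genes are close copies of each other, and 5 of 22 listed had a value. Genes of female-biased liver gave 5 lower of 14 with a median of -1.68, among them Cyp2a4 (8.22 and 2.56) and Hao2 (7.21 and 1.45), while Cyp2b9 (3.82 and 2.76) and Sult2a1 (1.49 and 1.18) lay under the limits. Xist, transcribed from the inactive X chromosome of female cells, read 1.93 and 8.46 and was at 2.44 and 8.79 on the LncGata6 mutant and Ehf-/- arrays. Uty, on the Y chromosome, read 5.28 and 3.39, and Kdm5d read 4.50 and 3.43, under the limits. The sex of the mice is not in the labels. Whether these differences go with the sex of the mice or with the sorted cells was not tested. Of 771 measured protein-coding genes on the X chromosome 14 were higher and 40 lower, with a median of -0.11.

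Markers of resident cells outside the epithelium gave mostly lower calls. Of all genes 7.29% were lower, and of protein-coding genes above a limit 29.7%. Of 32 macrophage and dendritic genes 9 were lower (28.1%) and 1 higher (median -1.03), and 16 lay under both limits. All 9 lay among the 16 members above a limit, whose median was -1.44. The median over all protein-coding genes above a limit was -0.45. The members called lower include markers of Kupffer cells, the macrophages of liver sinusoids, with Clec4f at 6.13 on the non-stem and 3.20 on the stem array and Vsig4 at 5.41 and 1.43. Csf1r, the receptor that macrophages depend on, read 6.57 and 4.46, and Adgre1 (F4/80) read 4.77 and 3.33, under the limits. Of 30 endothelial genes 12 were lower and 1 higher (median -0.97). Clec4g (5.71 and 2.82) and Stab2 (5.40 and 2.67), both of liver sinusoidal endothelium, were the largest lower differences in that list, while general markers Pecam1 (6.06 and 5.79) and Cdh5 (6.41 and 6.92) were not called. Apold1, an endothelial gene that stimuli induce quickly, ran the other way at 3.56 and 6.94 (at least 3.43-fold). Of 33 collagens and matrix genes 15 were lower and 0 higher (median -1.22), led by fibronectin (Fn1, 8.67 and 4.35), which hepatocytes also secrete, and including Col1a1 (6.14 and 4.79) and Col3a1 (6.16 and 3.93). Smooth muscle genes gave 1 call in 16, with Acta2 at 6.28 and 6.61 and Myh11 at 4.27 and 5.41. Of 14 enteric neuron and glia genes 2 were higher, the neuropeptide Vip (1.99 and 5.77) and L1cam (4.55 and 6.08).

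Blood cell genes differed by lineage. Of 18 neutrophil genes 7 were lower and 0 higher (median -1.35), with the calgranulins S100a8 at 7.87 on the non-stem and 1.51 on the stem array and S100a9 at 7.96 and 2.92. On the Ehf-/- array S100a8 and S100a9 read 11.44 and 11.67. Red cell genes were lower in 3 of 12 cases, as with Alas2, which starts haem synthesis there (7.17 and 2.94). T cell genes gave 1 call in 28, Nkg7 (5.62 and 4.54, lower), with a median of -0.22. Cd3e read 5.60 and 5.06, Cd8a read 4.83 and 4.21, and granzyme A (Gzma) of intraepithelial lymphocytes read 7.86 and 7.15. Innate lymphoid genes gave 3 lower and 1 higher of 20. Id2 and Arg1 were lower with Rora (6.0 and 3.81), and the higher gene was Sox4 (4.34 and 5.64). Mast cell genes gave no call in 12, although Mcpt1, the mucosal protease, read 1.64 and 4.27, under the limits.

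Antibody V segments were examined as a set chosen after their values were seen. Of 117 immunoglobulin heavy chain V segments 94 were higher and 0 lower, with a median difference of 2.64, and their median level was 5.25 on the non-stem and 8.03 on the stem array. Of 86 kappa V segments 67 were higher and 0 lower, with a median difference of 3.11 and median levels of 4.91 and 8.33. None of 119 T cell receptor V segments was called, with a median of 0.13 and median levels of 2.61 and 2.77. V segments are the gene pieces joined at random in each lymphocyte. Many are near-identical and may share probes, so these counts do not stand for as many separate readings. Among the kappa segments with large differences were Igkv6-29 (2.52 and 7.5, at least 5.08-fold) and Igkv5-48 (4.82 and 9.29, at least 17.5-fold). Jchain, which joins secreted IgA and IgM, read 5.35 and 8.61 (9.59-fold higher), and Mzb1, an antibody-folding factor of plasma cells, read 4.69 and 5.72 (at least 1.47-fold). Of the B cell receptor partners, Cd79a was at 4.88 and 5.05 and Cd79b was lower at 5.79 and 4.68, and the IgM heavy chain Ighm was lower at 7.93 and 6.54 (2.62-fold). Ms4a1 (CD20) read 5.30 and 4.61 and Cr2 read 4.75 and 2.06, neither called. The plasma cell receptor Tnfrsf17 (2.78 and 4.3) and Sdc1 (5.46 and 5.32) were not called either. Plasma cells are plentiful in the gut wall beneath crypts, and their part in the GFP-positive sample was not tested. The median level of heavy chain segments was 6.17 on the LncGata6 mutant array and 8.28 on the Ehf-/- array.

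**Figure D4:**
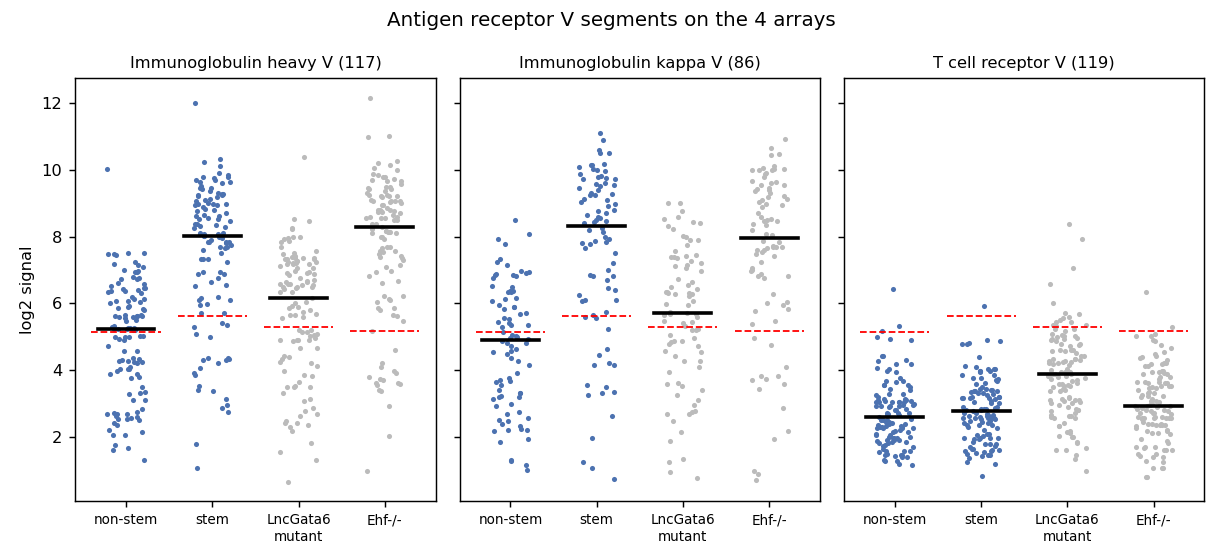
Log2 signal of 117 immunoglobulin heavy chain, 86 immunoglobulin kappa and 119 T cell receptor V segments on each of the 4 arrays, with black bars at the medians and red dashed lines at the control limit of each array. The immunoglobulin medians are 5.25 and 4.91 on the non-stem array and 8.03 and 8.33 on the stem array, and the T cell receptor segments lie mostly under the limits on all 4 arrays.

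Mitochondrial lists differed in how many members were lower. Of 59 nuclear genes of the respiratory chain, 58 of them above a limit, 17 were lower (28.8%) and 1 higher (median -0.74), a share near the 29.7% of all protein-coding genes above a limit. All members of the tricarboxylic acid cycle and fatty acid oxidation lists lay above a limit. Of 19 genes of the tricarboxylic acid cycle 12 were lower (63.2%) and 0 higher (median -1.05), and of 28 genes of fatty acid oxidation 24 were lower (85.7%) and 0 higher (median -1.78). Sdha, which serves both the respiratory chain and the cycle, read 8.26 on the non-stem and 6.43 on the stem array (3.54-fold). The peroxisomal enzyme Ehhadh read 9.55 and 5.36 (at least 15.2-fold) and Cpt1a, the entry step of fatty acids into mitochondria, read 8.96 and 7.11 (3.60-fold). Cox7c was the higher respiratory gene, at 5.62 and 6.89 (2.40-fold), and citrate synthase (Cs) read 8.61 and 8.11. Gluconeogenesis is a task of liver and kidney. Of 11 genes 9 were lower, with G6pc at 10.09 and 3.0 and Fbp1 at 9.84 and 4.62. Glycolysis was mixed, with 2 higher and 7 lower of 17. Hexokinase 2 (Hk2), the isoform of growing cells, was higher at 4.07 and 6.51 (at least 2.55-fold), Ldhb was lower at 8.75 and 3.30, and Ldha read 7.96 and 7.53. Cholesterol synthesis showed 1 call in 19, Sc5d (7.91 and 6.46), with Hmgcs1 at 9.05 and 8.28. The fatty acid oxidation and gluconeogenesis lists run in the same direction as the hepatocyte and kidney lists, whose cells are rich in mitochondria, and how much of the difference goes with those transcripts was not tested.

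Detoxification and solute transport were lower in the same way. Of 41 P450 genes of families 2 and 3, 28 were lower and 0 higher (median -4.42), such as Cyp2c70, which makes muricholic acid, at 9.63 on the non-stem and 1.43 on the stem array. Of 30 glutathione transferases and glucuronosyltransferases 24 were lower and 0 higher (median -2.29), with Gstm1 at 10.39 and 6.38 (16.1-fold) and Ugt3a2 at 10.20 and 1.54. Of 16 peroxisome genes 9 were lower and 0 higher, with a median of -1.16. Amino acid and organic solute carriers gave 20 lower and 2 higher of 30. The urate and phosphate carrier Slc17a1 read 8.90 and 1.46, the organic cation carrier Slc22a2 read 8.65 and 2.78, and the efflux pump Abcb1a, which the gut expresses, was higher at 4.78 and 6.58 (at least 2.69-fold). Apical sodium and glucose carriers gave 10 lower and 0 higher of 17. The intestinal glucose carrier Slc5a1 read 7.63 and 7.06, not called, and its kidney counterpart Slc5a2 read 8.41 and 3.96 (at least 6.90-fold lower).

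Immediate early genes, which cells induce within minutes of a stimulus, cell isolation included, were higher. Of 27 genes 19 were higher and 0 lower, with a median of 1.98. Fos read 5.52 on the non-stem and 8.71 on the stem array (9.13-fold), Jun read 5.98 and 9.35 (10.3-fold), and Klf6 read 5.95 and 9.58 (12.4-fold). Egr1 read 5.67 and 8.08 (5.32-fold), Atf3 read 4.67 and 8.52, and the prostaglandin synthase Ptgs2 read 2.15 and 6.74. The uncalled members also lay above 0, as with Btg2 (6.36 and 6.93) and Klf2 (5.01 and 5.46). Myc, Hbegf and Ccn1, given above with signalling lists, are also induced this way, and the part of handling in them was not tested. Heat shock genes were divided, with 4 higher and 2 lower of 16: Hspa1a read 4.98 and 9.02, Hsp90aa1 read 8.05 and 9.39 (2.54-fold), Hspa8 read 11.70 and 11.97, and the small heat shock proteins Cryab (6.04 and 4.07) and Hspb8 (5.38 and 3.23) were lower. Genes of protein folding in the endoplasmic reticulum gave 6 higher and 0 lower of 27, with the chaperone Hspa5 (BiP) at 7.63 and 9.14 (2.85-fold) and Ddit3 at 4.63 and 6.10. Hypoxia genes were lower in 5 of 16 cases (31.25%), with 10 of the 16 above a limit. All 5 lay among those 10, whose median was -1.08. Of all protein-coding genes above a limit 29.7% were lower, with a median of -0.45. Ndrg1 read 10.19 and 6.09 (17.1-fold lower) and Vegfa read 7.39 and 6.22, while Car9 was higher at 3.87 and 5.74.

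Immune response genes showed few calls. Of 34 interferon-induced genes 5 were lower and 0 higher (median -0.41), with Bst2 at 8.24 on the non-stem and 5.56 on the stem array, and Isg15 under the limits at 2.84 and 2.70. Of 9 MHC class II genes H2-Aa was higher at 5.52 and 6.57 (2.07-fold), and H2-Ab1 read 8.64 and 8.83. Of 17 genes of class I presentation 2 were higher, the immunoproteasome subunits Psmb10 (6.19 and 7.92, 3.31-fold) and Psmb8 (5.11 and 6.34), and 3 were lower, among them H2-Q10, a class I gene of liver (7.69 and 5.03). B2m, the shared light chain, read 11.14 and 11.01.

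Long noncoding RNAs were mostly too dim to compare. Of 3342 genes of that type 5 were called higher and 15 lower, and 25 reached the limit on the stem array. The named higher genes were Xist, Tmem238l (4.67 on the non-stem and 6.95 on the stem array) and the snoRNA host Snhg5 (3.70 and 5.93, at least 1.70-fold). Lower were AI314278 (6.21 and 2.03), BC024386 (7.19 and 3.01), the urinary protein pseudogene Mup-ps15 (6.90 and 1.20) and Malat1, an abundant nuclear RNA (10.88 and 9.65, 2.34-fold). Lncpint read 5.59 and 4.52. Gata6os, which lies beside Gata6, read 3.14 and 4.92, under the limits, while Gata6 itself was higher at 5.08 and 7.21.

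Small noncoding RNAs were also chosen after their values were seen, and the classes below were picked by gene symbol. Over all 955 snoRNA genes 24 were higher (2.51%) and 45 lower (4.71%), with a median of 0.10. Of those, 129 reached the limit on the non-stem and 110 on the stem array. Over all 914 small nuclear RNA genes, U3 included, 13 were higher (1.42%) and 16 lower (1.75%). All 5 U3 genes, guides of ribosomal RNA processing, were higher, with Rnu3a at 7.58 on the non-stem and 10.25 on the stem array (6.34-fold). The 3 genes Rnu3b1, Rnu3b2 and Rnu3b3 had identical values (8.97 and 11.20), so their features share probes. Both Y RNAs, which bind the Ro protein, were lower, Rny1 at 9.70 and 6.15 (11.7-fold) and Rny3 at 11.71 and 8.32 (10.5-fold). Of 69 copies of 5S ribosomal RNA 49 were lower and 0 higher, with a median of -1.11, and -0.56 after quantile normalization, but the copies hold only 38 distinct pairs of values. Box C/D snoRNAs, which guide methylation, gave 3 higher and 14 lower of 44 (median -0.62), and box H/ACA snoRNAs, which guide pseudouridylation, gave 5 higher and 2 lower of 18 (median 0.20). Snord45b read 4.24 and 9.14 (at least 15.8-fold), Snora75 read 6.15 and 9.16 (8.05-fold), and Snord61 ran the other way at 9.56 and 6.76 (6.93-fold lower). Rnu11, of the minor spliceosome, read 7.94 and 10.15 (4.62-fold). RNAs this short depend on extraction and labelling, which cannot be told apart from the sort here.

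**Figure D5:**
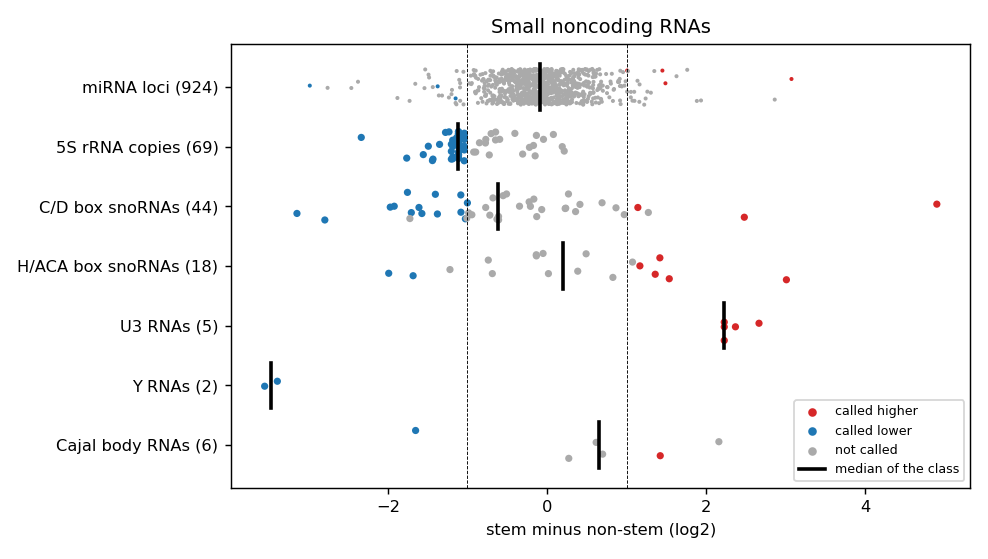
Difference, stem minus non-stem (log2), of each gene in 7 classes of small noncoding RNA, with red for genes called higher, blue for lower, grey for no call and black bars at the class medians. Y RNAs and 49 of 69 copies of 5S ribosomal RNA are called lower and all 5 U3 genes higher, while nearly all of 924 miRNA loci are uncalled.

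MicroRNA loci gave almost no calls. Of 924 loci 829 were under the limits on both arrays, 4 were higher and 3 lower. The probes read primary or precursor transcripts as well, so these values are not levels of mature miRNA. Mir122, the hepatocyte miRNA, read 2.07 on the non-stem and 1.47 on the stem array, although its tissue's messenger RNAs dominate the non-stem array, and Mir192 of gut and liver read 1.65 and 1.71. The mature sequences of the largest called locus in each direction, from RefSeq (GRCm38.p6), are shown with the seed, bases 2 to 8, in capitals.
mmu-miR-5124a (chr13:40865801-40865820, plus strand): gGUCCAGUgacuaagagcau
mmu-miR-692 (chr17:6895259-6895279, minus strand): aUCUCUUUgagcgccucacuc
Mir5124a read 3.98 and 7.05 (at least 3.72-fold higher), and Mir692-1 read 9.61 and 6.63 (7.9-fold lower). Their seeds differ.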

How the data were processed

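The deposited series table holds the authors' log2 values, 1 per feature of the Clariom D array, on 4 arrays. Per the submitters' processing notes, the tools were Affymetrix Power Tools with RMA. The genome build and tool versions are not given in the sources used here. This method subtracts background, equalises arrays and summarises probes, which compresses differences of dim features. Values ran from -0.18 to 13.1, and array medians were not equal. No value was changed. Symbols from the platform annotation were updated through RefSeq (GRCm38.p6), which changed 1792. Left out were 1489 features with several symbols and 39938 unnamed ones. The feature with the highest mean stood for each of 441 genes with several. The control limits rest on 5222 negative controls. Counting was tested on simulated arrays. Python 3.11.15, numpy 2.4.6 and pandas 2.3.3 were used.

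The 86 lists were written by hand. Each could be named through its first 2 genes and up to 8 more, called ones by size first. Further members account for those that run against the rest, and markers were fixed with the design. The microfold, p53 and metallothionein lists are not described in the Results. They gave 0 higher and 2 lower of 8, 3 higher and 3 lower of 17, and 1 higher and 0 lower of 9. Over all genes the 15 largest differences each way (without predicted genes, small RNAs, receptor segments and pseudogenes) and 5 long noncoding RNAs each way could be named. Members and lists were chosen with earlier results of these data known.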

Additional observations from a re-analysis of the deposited data

Results flagged for a closer look

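Signals outside the named genes were counted by the same rule. Of 33206 transcript clusters without a gene symbol, 215 were higher on the stem array (0.65%) and 535 lower (1.61%), with differences of up to 6.71 and down to -10.54. Of 1489 features that carry several symbols, 82 were higher (5.51%) and 90 lower (6.04%). These features entered no comparison of the report because they name no single gene.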

How the results depend on the processing

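The count of genes higher on the stem array was 926, and 1774 without the control limit, since dim genes then count. Asking for a difference of 2 left 394 higher and 975 lower, and counting protein-coding genes left 546 higher. The other counts stayed within 1.5 times: higher genes numbered 1109 after median scaling, 1325 after quantile normalization, 1179 with the 75th percentile as the limit and 922 with the median of a gene's features, and genes lower on the stem array 1980, 1728, 2172 and 2225 in the same order. Of the called genes that could be named, 27 lost the call and 640 kept it under median scaling, 47 and 620 under quantile normalization, and 2 and 665 with the median of features, and 0 changed direction. The medians of 29 lists moved by 0.5 or more, and those of 55 by less, when members under both limits were left out. The microfold, stomach, p53, B cell, EGF, metallothionein, class I and sex-linked medians changed sign under a scaling. With members under both limits left out, the innate lymphoid median went from 0.55 to -1.42, hypoxia from 0.06 to -1.08, Notch from 0.10 to -0.35, BMP and hedgehog from 0.09 to -0.15, smooth muscle from 0.17 to -0.03, p53 from -0.02 to 0.42, stomach from -0.12 to 3.05 (1 gene) and sex-linked from -0.11 to 2.32. No paired analysis was possible because each group has 1 array. Arrays, 1 a group, limit the precision, and 22067 genes lay under the control limits on both.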
